A study of Homo sapiens with 8 samples.

Results

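Full-length TET1 was supplied from a plasmid to HEK293T cells, an established line from human embryonic kidney in which SV40 large T antigen is present, and the cells were set against cells given an empty vector. The comparison was made by taking the arrays titled TET1-FL (wild-type protein), mTET1-FL (catalytically mutant protein) and Vector control, which are 3 of the 8 arrays of the series. Transfected cells were purified by fluorescence sorting on day 3 and total RNA was extracted, so all 3 arrays share the transfection, the sort and the labelling of 100 ng of RNA. Neither the promoter of the plasmids, the sorted marker nor the mutated residues are given in the sources used here, and no label names a separate culture or a hybridisation batch. Each condition had 1 array, and the wild-type and mutant arrays served as the pair of readings of full-length TET1.

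TET1 belongs to the TET dioxygenases, which oxidise 5-methylcytosine in DNA, the first step of active demethylation. Besides its catalytic domain, the full-length protein carries an amino-terminal CXXC zinc finger domain that binds DNA rich in CpG, the dinucleotide written CG below. It is found in complexes with the O-GlcNAc transferase OGT and with the SIN3A corepressor. In HEK293T cells, large T antigen binds the tumour suppressor p53 and the retinoblastoma protein, which is the background against which p53 target genes and cell-cycle genes are read here.

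The values were log2 signals of transcript clusters, the array's probe sets, and 1 unit is a 2-fold change. Of 53617 transcript clusters with values, 26735 were kept because the average of the vector value and the mean of both TET1 arrays lay above the same average of the array medians, 5.53. The array medians were 5.52 for the vector, 5.52 for TET1-FL and 5.55 for mTET1-FL. A gene with several kept clusters is represented by the one with the highest level, which gave 10329 named genes. Over the kept clusters the difference between the wild-type and mutant arrays had an SD of 0.249, against 0.410 for TET1-FL minus vector and 0.394 for mTET1-FL minus vector. Both differences from the vector use the same vector array, so a deviation of that array would enter both.

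TET1 itself was read by 2 clusters. Cluster 16715048 stood at 5.86 with the vector, 11.80 with TET1-FL and 11.91 with mTET1-FL, which is 61.2-fold and 66.1-fold above the vector. The vector value lay 0.35 above its array's median, where background may hold the signal up. Cluster 16705381 stood at 9.51, 12.22 and 12.47 in the same order, 6.55-fold and 7.78-fold above the vector. Both clusters were thus high in both TET1 arrays, the mutant reading being the higher by 0.11 and 0.25.

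A limma fit of the 3 arrays tested the mean of both TET1 arrays minus the vector. Its 1 residual degree of freedom is the difference between the wild-type and mutant arrays, and the lone vector array is assumed to vary alike, so a p-value here reflects how far these readings differ and says nothing of replicate cultures. None of the 26735 clusters passed an adjusted p of 0.05 (0% called), with a lowest limma adjusted p of 0.223, although 5576 had an unadjusted p under 0.05. TET1 16715048 had a fitted difference of 5.99 ± 0.09 (SE) and a limma adjusted p of 0.223. This cluster did pass when each array was centred on its median (limma adjusted p = 0.00965), when clusters with tied values were left out (0.0408) and when the vector and all 4 TET1 plasmid arrays were fitted together (0.00909). No other cluster passed in any of these fits, so what follows is a description of levels, in which a cluster is counted where both TET1 arrays lay at least 2-fold on the same side of the vector.

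By that count 423 clusters (1.58%) were higher with full-length TET1 and 26 (0.0973%) were lower. Among the 10329 named genes 86 (0.833%) were higher and 1 (0.00968%), DRD4, was lower. With TET1-FL alone 720 clusters (2.69%) were at least 2-fold higher and 123 (0.46%) lower, and with mTET1-FL alone 609 (2.28%) and 97 (0.363%). In single arrays, 137 named genes (1.33%) were at least 2-fold higher and 5 (0.0484%) lower with TET1-FL, and 98 (0.949%) were higher and 5 (0.0484%) lower with mTET1-FL. The median gene stood at -0.0008 with TET1-FL and -0.0085 with mTET1-FL, near 0, where normalisation between arrays places it. Many of the higher genes had a low vector level. Of the 86, 22 (25.6%) had a vector value below the vector array's median, against 163 (1.58%) of all named genes, and their median vector level was 6.49 against 7.35. The filter averages both sides, so genes with a vector value below the median were kept through their TET1 values. The contrast of 25.6% with 1.58% therefore follows at least in part from the filter. The fold of such genes may be understated or overstated.

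Behind TET1, the kinase gene PLK2, a p53 target that acts at centrosomes and in stress responses, was the highest named gene. It stood at 5.69 with the vector, 8.08 with TET1-FL and 7.90 with mTET1-FL, 5.25-fold and 4.63-fold above the vector. The fitted difference was 2.30 ± 0.12 (SE, limma adjusted p = 0.223). GDF15, a stress-induced cytokine of the TGF-beta family and likewise a p53 target, stood at 7.38, 9.11 and 9.10, which is 3.32-fold and 3.30-fold above the vector. The wild-type and mutant readings of GDF15 were 0.0091 apart, whereas both lay more than 1.7 above the vector.

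The promoters of a few genes are shown because the CXXC domain of full-length TET1 binds CG. Each sequence is the 250 bases before the RefSeq start site in GRCh38.p14, read 5′ to 3′ on the gene's strand, with every CG in capitals. PLK2 is at chr5:58460087-58460336 on the minus strand, GDF15 at chr19:18385908-18386157 on the plus strand, the zinc finger gene ZNF224 at chr19:44094111-44094360 on the plus strand, ANKRD1 at chr10:90921088-90921337 on the minus strand and DRD4, the 1 lower gene, at chr11:637019-637268 on the plus strand.
PLK2: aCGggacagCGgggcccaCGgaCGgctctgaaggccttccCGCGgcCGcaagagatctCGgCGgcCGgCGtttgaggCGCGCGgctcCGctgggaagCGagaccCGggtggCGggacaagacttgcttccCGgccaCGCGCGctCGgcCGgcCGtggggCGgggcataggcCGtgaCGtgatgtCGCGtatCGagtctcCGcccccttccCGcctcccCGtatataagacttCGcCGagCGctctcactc
GDF15: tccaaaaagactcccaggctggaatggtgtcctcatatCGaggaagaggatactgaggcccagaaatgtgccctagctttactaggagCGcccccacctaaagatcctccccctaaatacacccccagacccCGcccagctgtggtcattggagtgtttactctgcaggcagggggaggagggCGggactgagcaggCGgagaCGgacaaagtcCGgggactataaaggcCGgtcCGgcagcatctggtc
ZNF224: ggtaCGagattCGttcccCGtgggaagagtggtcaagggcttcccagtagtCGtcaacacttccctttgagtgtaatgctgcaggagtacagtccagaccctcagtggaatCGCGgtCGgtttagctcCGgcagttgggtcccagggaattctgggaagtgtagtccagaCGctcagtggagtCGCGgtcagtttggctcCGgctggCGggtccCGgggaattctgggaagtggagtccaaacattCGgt
ANKRD1: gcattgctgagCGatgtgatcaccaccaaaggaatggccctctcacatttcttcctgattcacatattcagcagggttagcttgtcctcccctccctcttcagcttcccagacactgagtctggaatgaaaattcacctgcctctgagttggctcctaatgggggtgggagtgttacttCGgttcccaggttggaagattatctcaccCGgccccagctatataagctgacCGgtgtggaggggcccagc
DRD4: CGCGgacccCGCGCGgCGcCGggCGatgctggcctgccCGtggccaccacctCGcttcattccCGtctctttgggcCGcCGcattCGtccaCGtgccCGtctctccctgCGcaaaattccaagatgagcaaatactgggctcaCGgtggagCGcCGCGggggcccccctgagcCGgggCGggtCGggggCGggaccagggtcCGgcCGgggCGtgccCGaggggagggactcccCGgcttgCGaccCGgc
The 3 higher genes PLK2, GDF15 and ANKRD1 thus had 37, 9 and 4 CG in 250 bases, and DRD4 had 32. ZNF224 had 15; the cluster that represents it was under 2-fold, while its other cluster was past it.

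ANKRD1, a muscle and stress gene activated by YAP and TEAD factors, stood at 5.01 with the vector and at 6.84 in both TET1 arrays. Its vector value was below the array median, so it was kept through its TET1 values. Its excess of 1.83 in each array may be understated or overstated. ARRDC3, an arrestin-domain adaptor that directs membrane receptors to degradation, started from a higher level of 8.13 and stood at 9.87 and 9.79. Its relative ARRDC4 differed in direction, at 9.93, 9.38 and 9.35, and TXNIP, the related thioredoxin-binding protein, stood at 9.64, 9.14 and 9.37. USP17L9P and USP17L12, copies of a deubiquitinase family, held identical values of 6.30, 8.44 and 8.33 and cannot be told apart. MPZL3, a membrane protein expressed in skin, stood at 5.34, 7.03 and 6.82, and its mean difference of 1.59 was 0.59 against the control shRNA clone. PIH1D2, whose product belongs to a family of dynein assembly factors, stood at 4.70, 6.32 and 6.45. MPZL3 and PIH1D2 also had a vector value below the array median and were kept through their TET1 values. In the plot of the leading genes the wild-type and mutant readings lay closer to each other than to the vector in every higher gene. These genes were ranked by the smaller of both differences from the same vector array, so this closeness follows largely from the choice.

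**Figure D1:**
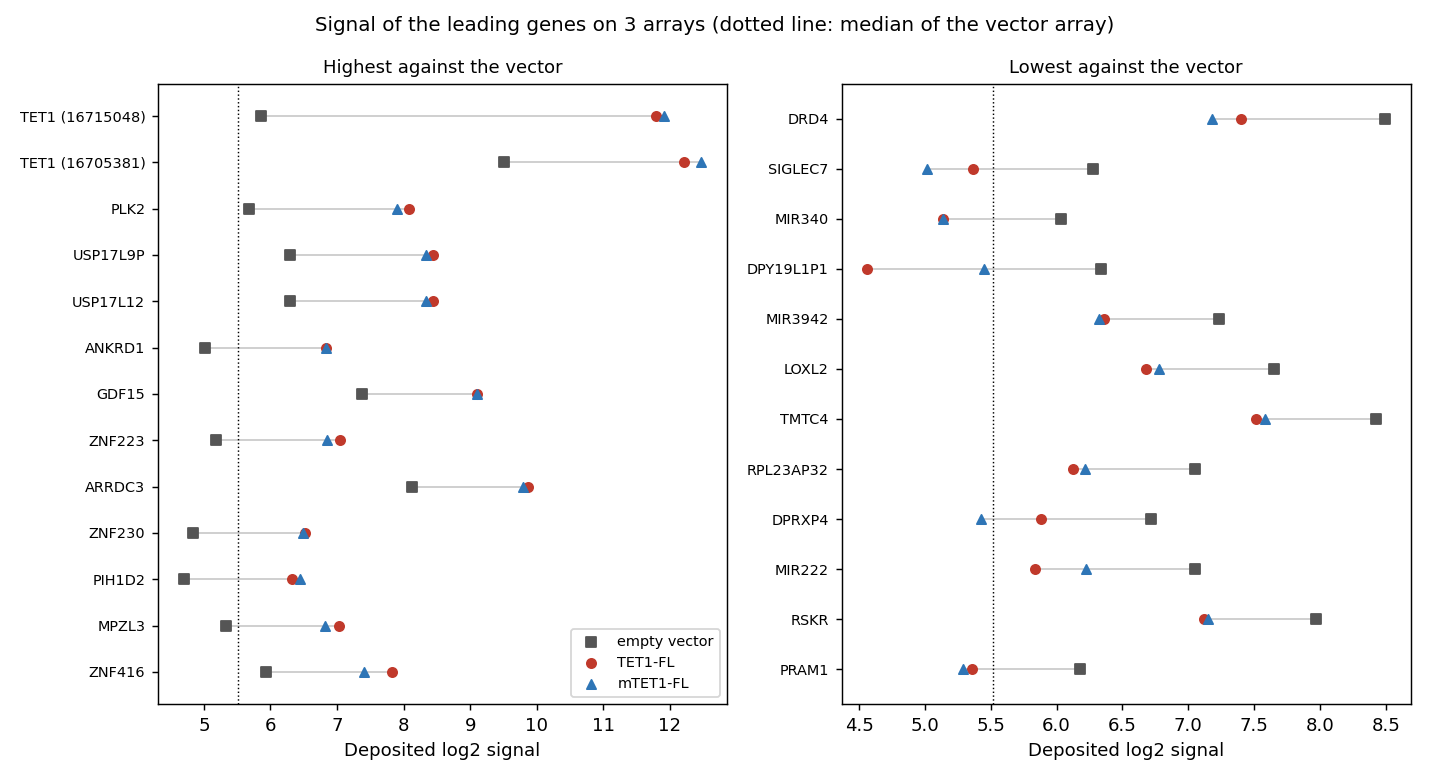
Deposited log2 signal (x axis) of both TET1 clusters and of the highest (left) and lowest (right) named genes on 3 arrays: empty vector (grey squares), TET1-FL (red circles) and mTET1-FL (blue triangles); the dotted line is the vector array's median of 5.52. PLK2 went from 5.69 with the vector to 8.08 and 7.90, and DRD4 from 8.49 to 7.40 and 7.18.

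Other genes past 2-fold were picked for description after their values were seen. They include DNAI4, a dynein intermediate chain (5.36, 6.79 and 6.40 in vector, TET1-FL and mTET1-FL), RSPH4A, a radial spoke head protein (5.17, 6.55 and 6.40), CIMAP3 (4.79, 6.58 and 6.03) and the pseudogene TPI1P2 (5.39, 7.31 and 6.85). These had a vector value below the array median and were kept through their TET1 values. RSPH4A stood at 6.40 in the control shRNA clone, level with the mutant reading. Growth factor and signalling genes among the 86 were HBEGF, LIF and SGK1. HBEGF, an EGF receptor ligand, stood at 6.37, 7.83 and 7.69, and LIF, a cytokine of the interleukin-6 family, at 5.34, 6.71 and 6.34. SGK1, a kinase induced by glucocorticoid and serum, stood at 4.93, 6.32 and 6.06. LIF and SGK1 also had a vector value below the array median and were kept through their TET1 values. Regulators of transcription and chromatin included MXD1, a partner of MAX that opposes MYC (7.70, 9.20 and 8.98), HEXIM1, an inhibitor of the elongation factor P-TEFb (7.60, 8.92 and 8.73), and KDM4D, a histone H3 lysine demethylase (6.99, 8.46 and 8.19). MYC itself stood at 8.81, 8.32 and 8.38, below the vector in both arrays. The kinase gene RIOK3 (9.54, 10.56 and 10.57) and RRAGC, a GTPase that signals amino acids to mTORC1 (7.20, 8.25 and 8.29), were just past 2-fold.

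On the lower side no named gene but DRD4 was 2-fold lower in both arrays. DRD4, the dopamine D4 receptor gene, stood at 8.49 with the vector, 7.40 with TET1-FL and 7.18 with mTET1-FL, differences of -1.09 and -1.31. In the control shRNA clone of the same series, a lentiviral clone not listed as sorted, DRD4 stood at 7.29, close to the TET1 arrays. SIGLEC7, a sialic acid receptor of immune cells, stood at 6.28, 5.36 and 5.02. LOXL2, which cross-links collagen, stood at 7.65, 6.68 and 6.78, and at 6.68 in the control shRNA clone. TMTC4, a mannosyltransferase of the endoplasmic reticulum, stood at 8.43, 7.52 and 7.58. For DRD4 and LOXL2, therefore, the vector array was the one that stood apart from the other 3.

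The remaining lowest genes were less known or small RNA genes. DPY19L1P1 had readings that were far apart, 6.34 with the vector, 4.56 with TET1-FL and 5.45 with mTET1-FL. MIR3942 stood at 7.23, 6.36 and 6.32 and MIR340 at 6.03, 5.14 and 5.14, while MIR340 was at 5.01 in the control shRNA clone. RPL23AP32 (7.05, 6.12 and 6.21), DPRXP4 (6.72, 5.88 and 5.43), RSKR (7.97, 7.12 and 7.15) and PRAM1 (6.17, 5.36 and 5.29) completed the 12 lowest. PRAM1 stood at 5.35 in the control shRNA clone, which takes its mean difference from -0.85 to -0.023, and DPY19L1P1 at 5.28, which takes it from -1.33 to -0.28. In single arrays GSDMD (6.72 with the vector and 5.54 with TET1-FL) and TLL2 (6.06 and 4.96) were also 2-fold lower with the wild-type protein, but stood at 6.47 and 5.72 with the mutant. AQP12A (6.74 with the vector and 5.59 with mTET1-FL) and MIR4534 (7.86 and 6.81) were 2-fold lower with the mutant, but stood at 6.15 and 7.19 with the wild type.

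MIR222 was also among the lowest, at 7.05 with the vector, 5.84 with TET1-FL and 6.23 with mTET1-FL. Its neighbour on the X chromosome, MIR221, stood at 8.36, 7.97 and 7.56. The 3p strands of both genes repress CDKN1B, among other transcripts, through a shared seed, which is why these mature sequences are shown. They are from RefSeq, 5′ to 3′ with the seed (bases 2 to 8) in capitals.
hsa-miR-222-3p: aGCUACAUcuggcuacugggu
hsa-miR-221-3p: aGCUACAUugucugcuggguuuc
The array reads the precursor gene, not the mature strand. The differences from the vector were unequal, -1.21 and -0.83 for MIR222 and -0.39 and -0.79 for MIR221. Over 340 kept genes that RefSeq lists as microRNA, 4 (1.18%) were 2-fold higher, against 0.833% of all named genes, 0 were 2-fold lower in both arrays, and the median of the mean difference was -0.088.

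The p53 targets are genes that p53 activates after DNA damage or other stress, and they act in arrest, repair and apoptosis. Of 31 genes listed, only 18 had a cluster named here, and all 18 were kept. The other listed genes may lie among the 37519 clusters that carry no name here, so the counts cover only part of the list. CDKN1A and MDM2 are not among the 18. Both TET1 arrays lay above the vector for 17 of these (38.3% of all 10329 named genes did so) and below it for 0 (41.8% of all named genes). At least 2-fold higher were 3 members (16.7%), against 0.833% of all named genes. The median difference was 0.82 with TET1-FL and 0.75 with mTET1-FL, against -0.0008 and -0.0085 for all named genes, and all 18 had a vector value above the array median.

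Besides PLK2 and GDF15, the member past 2-fold was AEN, an exonuclease of p53-dependent apoptosis, at 7.71 with the vector, 9.003 with TET1-FL and 9.04 with mTET1-FL. Apoptosis genes further comprised BAX, which permeabilises mitochondria (7.55, 8.42 and 8.20), BBC3, which encodes PUMA (6.45, 7.04 and 7.18), TRIAP1 (7.80, 8.84 and 8.58) and the death receptor EDA2R (6.54, 7.51 and 7.46). PMAIP1, which encodes NOXA, stood at 10.10, 10.26 and 10.29, less than 0.2 above the vector. Genes of growth control and repair were TP53INP1 (6.91, 7.95 and 7.89), SESN1, an inhibitor of mTORC1 (7.06, 7.96 and 7.91), and RRM2B, the p53-induced ribonucleotide reductase subunit (6.88, 7.88 and 7.74). RPS27L stood at 6.41, 7.19 and 7.56 and PLK3 at 6.25, 7.02 and 6.97. Members with a high vector level were the ones nearest the vector in both TET1 arrays, namely PMAIP1, SESN2 (10.42, 10.52 and 10.58) and CCNG1, the 1 member whose readings lay on either side of it (10.33, 10.25 and 10.40). Against the control shRNA clone in place of the vector the list's medians were 0.69 and 0.67.

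The p53 half-site motif was searched in the RefSeq windows of 300 bases from 250 before to 50 after the start, on both strands, which are the same search because the motif is its own reverse complement. It was found for 3 of 16 p53 list genes with a window (18.8%), namely AEN, RPS27L and PLK2. It was found for 7 of 60 genes 2-fold higher (11.7%), for 422 of 7992 named genes kept (5.28%) and for 1786 of 27305 windows (6.54%). A match is only a run of letters, and p53 sites often lie outside such a window.

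The mitotic list holds genes of the G2/M phase, many of them bound by the MuvB complex with B-MYB and FOXM1. Of 28 members kept, 27 had both TET1 arrays above the vector and 0 had both below, against 38.3% and 41.8% of all named genes, with medians of 0.43 with TET1-FL and 0.49 with mTET1-FL. At least 2-fold higher were 2 members (7.14%), against 0.833% of all named genes. HMMR, a spindle protein and hyaluronan receptor, stood at 8.53 with the vector, 9.73 with TET1-FL and 9.66 with mTET1-FL, and CDC20, the activator of the anaphase-promoting complex, at 10.18, 11.20 and 11.19. The kinesin gene KIF20A stood at 9.25, 10.06 and 10.04, the kinetochore gene NDC80 at 8.36, 9.10 and 9.18, and the checkpoint kinase gene BUB1 at 9.56, 10.26 and 10.39. PLK1, the main mitotic polo kinase, stood at 11.28, 11.90 and 11.87. MAD2L1, whose product holds CDC20 at the checkpoint, stood at 8.35, 8.35 and 8.42. The list's medians were 0.51 and 0.54 against the control shRNA clone.

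**Figure D2:**
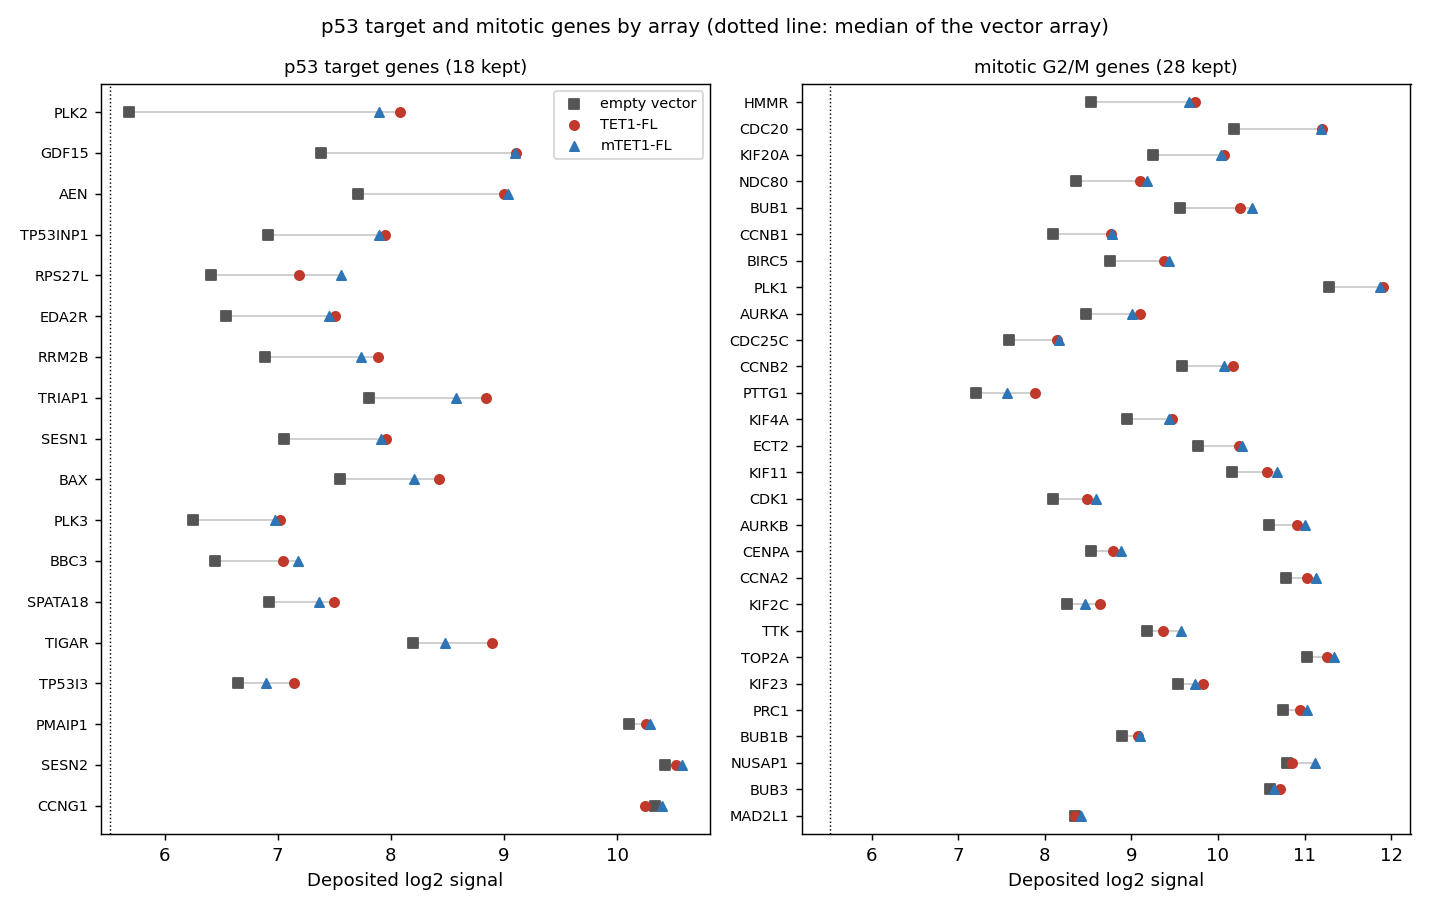
Deposited log2 signal (x axis) of every kept p53 target (left) and mitotic gene (right) with the vector (grey squares), TET1-FL (red circles) and mTET1-FL (blue triangles); the dotted line is the vector array's median of 5.52. In 17 of 18 p53 targets and 27 of 28 mitotic genes both TET1 readings lie to the right of the vector.

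Genes of DNA replication and the G1/S transition, which precede mitosis in the cell cycle, lay near the vector. Of 25 kept, 8 lay above the vector in both arrays and 14 below (38.3% and 41.8% of all named genes). None was past 2-fold (0.833% of all named genes were 2-fold higher), and the medians were -0.04 and -0.07. PCNA, the sliding clamp and also a p53 target, was among the higher ones at 9.69, 10.16 and 10.20. CDC45, of the replicative helicase, stood at 9.45, 9.12 and 9.10, and E2F1 at 9.09, 8.86 and 8.76, while GINS3 (8.70, 9.24 and 9.07) and CDC6 (9.69, 9.97 and 10.08) lay above the vector.

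Zinc finger genes with a KRAB domain encode repressors that recruit KAP1, and most of them lie in clusters on chromosome 19. Of 153 listed, 95 were kept, and 10 of these (10.5%) were at least 2-fold higher, against 0.833% of all named genes, and 0 lower. Both readings lay above the vector for 65 (38.3% of all named genes did so) and below it for 13, with medians of 0.37 with TET1-FL and 0.28 with mTET1-FL. The median over both arrays was 0.31, and 0.21 without the filter over 144 measured members. Against the control shRNA clone the medians were 0.80 and 0.68. The 10 were ZNF223 (5.18, 7.04 and 6.85), ZNF230 (4.84, 6.52 and 6.48), ZNF461 (5.51, 7.43 and 6.97), ZNF350, ZNF284, ZNF419, ZNF134, ZNF776, ZNF480 and ZNF585A. Of the 95, 12 had a vector value below the array median and were kept through their TET1 values, among them 5 of the 10, ZNF223, ZNF230, ZNF284, ZNF350 and ZNF461. The lowest members were ZFP14 (6.31, 5.33 and 5.53) and ZNF700 (5.99, 5.22 and 5.02).

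With RefSeq positions and a promoter window, 678 kept genes lay on chromosome 19, and 15 (2.21%) were 2-fold higher. These were 11 of 152 zinc finger genes (7.24%) and 4 of 526 other genes (0.76%). Outside chromosome 19, 5 of 207 zinc finger genes (2.42%) were 2-fold higher, including ZNF268 (5.65, 6.87 and 6.89) and ZNF425 (5.36, 6.87 and 6.60). ZNF425 had a vector value below the array median and was kept through its TET1 values, like some chromosome 19 genes named above. The higher zinc finger genes were therefore not all on chromosome 19, and the other genes of that chromosome were near the share of all named genes.

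Gene blocks of chromosome 19 were chosen after the values were seen, for their high readings, so their counts are a description. From ZNF45 to ZNF229, all 17 protein-coding genes were measured, and without the level filter 16 had both TET1 readings above the vector and 1, ZNF229, had both below. Medians over the 17 were 0.70 with TET1-FL and 0.47 with mTET1-FL, and 9 had a vector value below the array median. The filter kept 12, of which 3 were 2-fold higher, ZNF223, ZNF230 and ZNF284. Among the kept genes ZNF235 was nearest the vector at 6.90, 6.96 and 6.96. ZNF224, a repressor whose promoter is printed above, was read by 2 clusters that differed in size. Cluster 16873145 stood at 4.93, 7.51 and 7.08, and cluster 16862918, which represents the gene, at 6.23, 7.04 and 6.87. From ZNF543 to ZNF586, 22 of 24 genes were measured, and without the filter 19 lay above the vector in both arrays and 3 below, with medians of 1.09 and 0.84. The filter kept 18. The 6 genes past 2-fold there were ZNF543, ZNF419, ZNF416 (5.94, 7.83 and 7.41), ZNF530 (5.57, 6.80 and 6.81), ZNF134 (7.23, 8.63 and 8.42) and ZNF776 (7.05, 8.58 and 8.12). ZNF749 (7.84, 7.48 and 7.65) and ZNF549 (6.15, 6.11 and 5.95) were the kept genes below the vector. The other higher genes of the list, ZNF461, ZNF585A, ZNF350 and ZNF480, lay in neither block. Zinc finger genes of 1 block are related in sequence, so their probes may share signal, which was not tested.

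**Figure D3:**
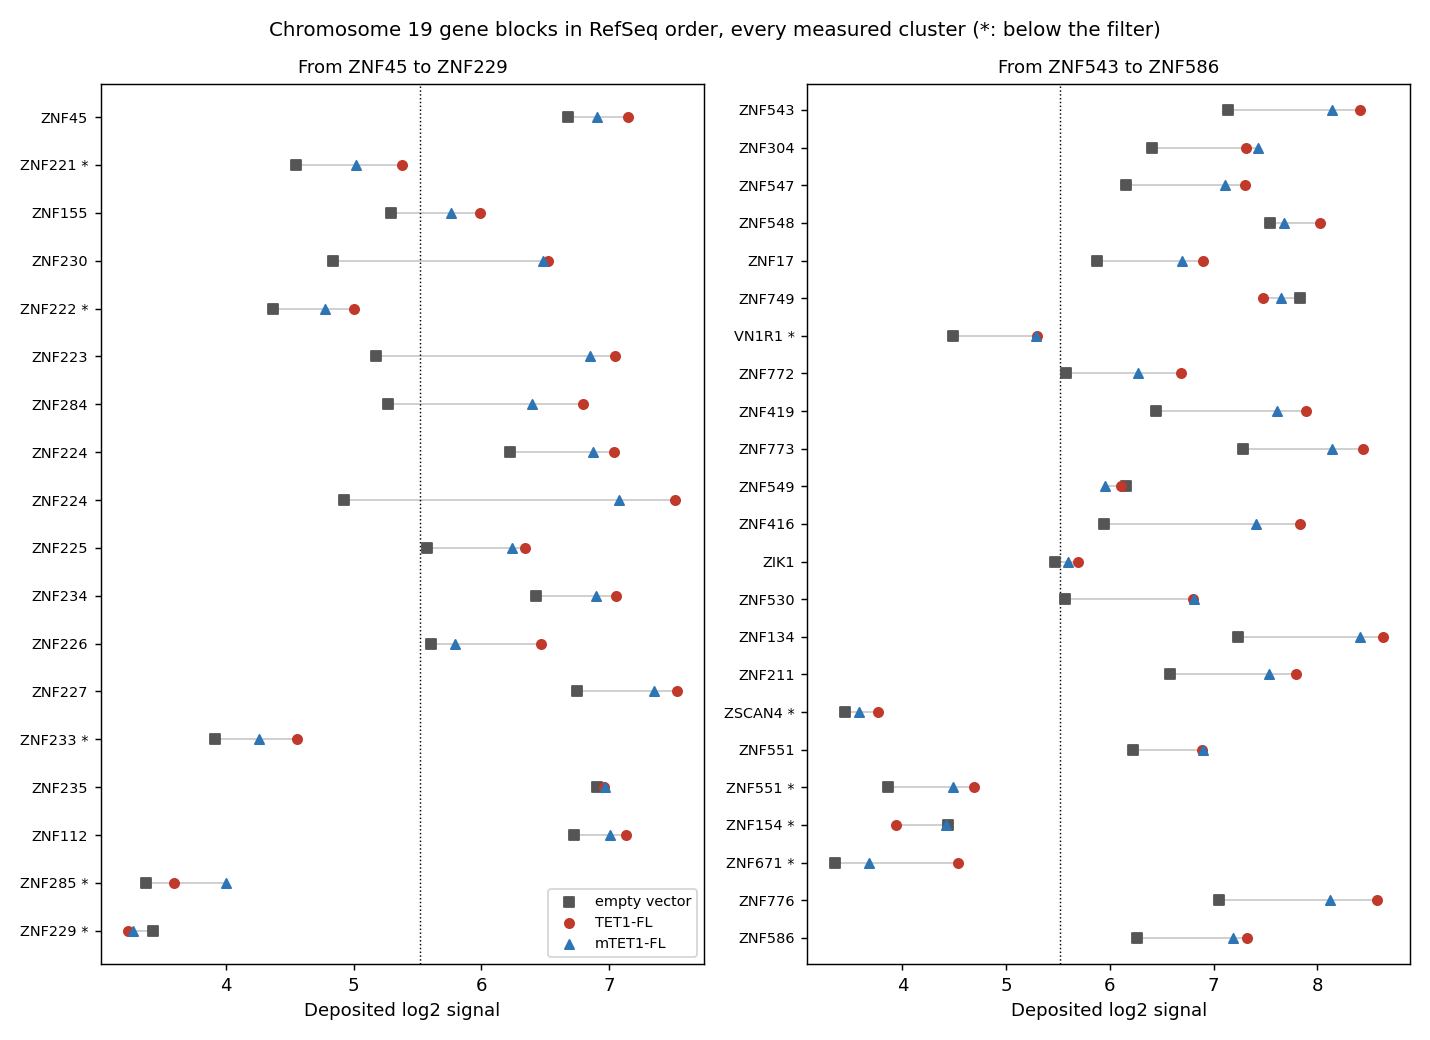
Deposited log2 signal (x axis) of every measured transcript cluster in 2 gene blocks of chromosome 19, in RefSeq order, with the vector (grey squares), TET1-FL (red circles) and mTET1-FL (blue triangles); an asterisk marks a cluster below the filter and the dotted line is the vector array's median of 5.52. In the left block 16 of 17 measured genes, and in the right block 19 of 22, have both TET1 readings above the vector.

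Some small RNAs made by RNA polymerase III were looked at after the values were seen, so their counts are a description. The SNAR genes, small RNAs bound by the protein NF90, occur in near-identical copies and so cannot be separated with confidence. Their 14 clusters held 10 distinct sets of values for 8 gene symbols. All 8 lay above the vector in both arrays, 6 (75%) by at least 2-fold (0.833% of all named genes), with medians of 1.24 with TET1-FL and 1.45 with mTET1-FL. SNAR-B1 had the highest level at 11.02, 12.56 and 12.34, SNAR-H stood at 7.06, 8.50 and 8.79, and SNAR-I was nearest the vector at 7.57, 7.63 and 8.04. Vault RNA genes were 2-fold higher in 2 of 2 kept (0.833% of all named genes). VTRNA1-1 stood at 5.32, 6.63 and 6.75, and VTRNA1-3 at 8.95, 10.20 and 10.00. The vector value of VTRNA1-1 was below the array median, so VTRNA1-1 was kept through its TET1 values. In the control shRNA clone VTRNA1-1 stood at 6.24 and VTRNA1-3 at 8.48. RPPH1, the RNA of ribonuclease P, stood at 6.97, 7.82 and 7.68, short of 2-fold, and RMRP, its relative in ribonuclease MRP, at 12.05, 11.89 and 12.05.

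POLR3C, a subunit of RNA polymerase III itself, stood at 8.78 with the vector, 10.13 with TET1-FL and 10.09 with mTET1-FL. It was the 1 of 5 kept genes named POLR3 (20%) that passed 2-fold, against 0.833% of all named genes. POLR3E stood at 9.05, 8.64 and 8.73 and POLR3G at 8.59, 8.52 and 8.24. Small Cajal body RNAs, most of which are made from introns of RNA polymerase II transcripts, had 0 of 21 past 2-fold. Of these, 13 lay above the vector in both arrays and 4 below, with medians of 0.25 and 0.21. Of all named genes 38.3% lay above, 41.8% below and 0.833% were 2-fold higher.

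Immediate early genes answer serum and stress within minutes. Of 22 kept, 14 lay above the vector in both arrays and 1 below (38.3% and 41.8% of all named genes), and medians were 0.41 with TET1-FL and 0.18 with mTET1-FL. FOSB, a partner of JUN in AP-1, was the 1 member past 2-fold (0.833% of all named genes) at 6.19, 7.54 and 7.32. EGR1, a zinc finger factor, stood at 7.75, 9.20 and 8.69, with the mutant reading under 2-fold, and FOSL1 stood at 6.43, 7.41 and 7.39. In the control shRNA clone EGR1 stood at 9.08 and FOSB at 7.05, nearer the TET1 arrays than the vector. FOSL1 stood there at 6.68, nearer the vector. Against that clone the list's medians were 0.54 and 0.50. MYC was the 1 member below the vector in both arrays.

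Genes tied to TET1 by function were mostly close to the vector. Among 16 genes that write, read or erase DNA methylation, TET1 was the 1 past 2-fold, and the list's medians were 0.06 in both arrays. MBD1, a methyl-CpG reader, stood at 7.40, 7.90 and 7.73, and TDG, the glycosylase that removes oxidised methylcytosine, at 7.90, 8.31 and 8.24. Of 11 genes of TET1 partner complexes 0 passed 2-fold. Of all named genes 0.833% were 2-fold higher, so a count of 0 in so short a list says little. OGT stood at 11.14, 10.74 and 10.67, while EZH2, the Polycomb methyltransferase, stood at 9.59, 9.84 and 10.01, and HDAC2 at 7.98, 8.30 and 8.33.

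Lists of genes under promoter methylation or developmental control were counted in the same way. Of all named genes 38.3% lay above the vector in both arrays, 41.8% lay below and 0.833% were 2-fold higher. A count of 0 past 2-fold in a short list therefore says little. Of 31 measured genes commonly methylated in cancer the filter kept 23. Of these, 6 lay above the vector in both arrays and 10 below, 0 passed 2-fold and medians were -0.08 and -0.01. The highest were SOCS1, a cytokine signalling inhibitor (5.31, 6.30 and 6.46), DKK1, a Wnt antagonist (5.30, 6.21 and 6.04), and HIC1 (5.25, 6.04 and 5.89), all with a vector value below the array median. Of 16 measured imprinted genes the filter kept 9, of which 2 lay above and 5 below. The farthest were ZNF597 (6.26, 7.26 and 7.13), GRB10 (7.45, 7.02 and 6.97) and KCNQ1OT1 (8.23, 7.77 and 7.84). Of 15 measured germline genes the filter kept 2, SAGE1 (6.01, 5.89 and 5.76) and PRAME (6.95, 7.26 and 6.94). Genes below the level filter are thus not covered by these counts. HOX genes, which pattern the body axis, gave 10 above and 12 below of 25, ranging from HOXD9 (7.27, 6.58 and 6.49) and HOXC9 (8.88, 8.31 and 8.17) to HOXB2 (7.65, 8.40 and 8.22). Bivalent developmental regulators gave 18 above and 8 below of 35, with medians of 0.08 and 0.02. The highest were MSX2 (6.69, 7.28 and 7.67), FOXD3 (5.53, 6.27 and 6.04) and EOMES (6.02, 6.55 and 6.55). EOMES held an identical value in both TET1 arrays, a tie of the kind described at the end.

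The ATF4, sterol and matrix lists had medians below the vector. Their counts stand beside 38.3% of all named genes above the vector in both arrays and 41.8% below. In the ATF4 amino-acid response 6 of 19 were above and 11 below, with medians of -0.23 and -0.17. ASNS, asparagine synthetase, stood at 9.32, 8.59 and 8.64 and PSAT1 at 11.59, 10.89 and 11.03, whereas DDIT3, which encodes CHOP, stood at 6.63, 7.63 and 7.60. Sterol synthesis genes gave 3 above and 9 below of 15, with medians of -0.28 and -0.16, FDPS being the lowest at 8.51, 7.94 and 7.85, followed by INSIG1 (10.82, 10.28 and 10.29) and HMGCS1 (8.08, 7.59 and 7.66). Extracellular matrix genes gave 1 above and 9 below of 12, with medians of -0.25 and -0.23, LOXL2 and fibronectin (FN1: 8.89, 8.40 and 8.44) being the lowest, before TIMP3 (8.42, 8.13 and 8.12). These 3 lists changed sign against the control shRNA clone, to medians of 0.20 and 0.19, 0.18 and 0.20, and 0.0028 and 0.073.

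**Figure D4:**
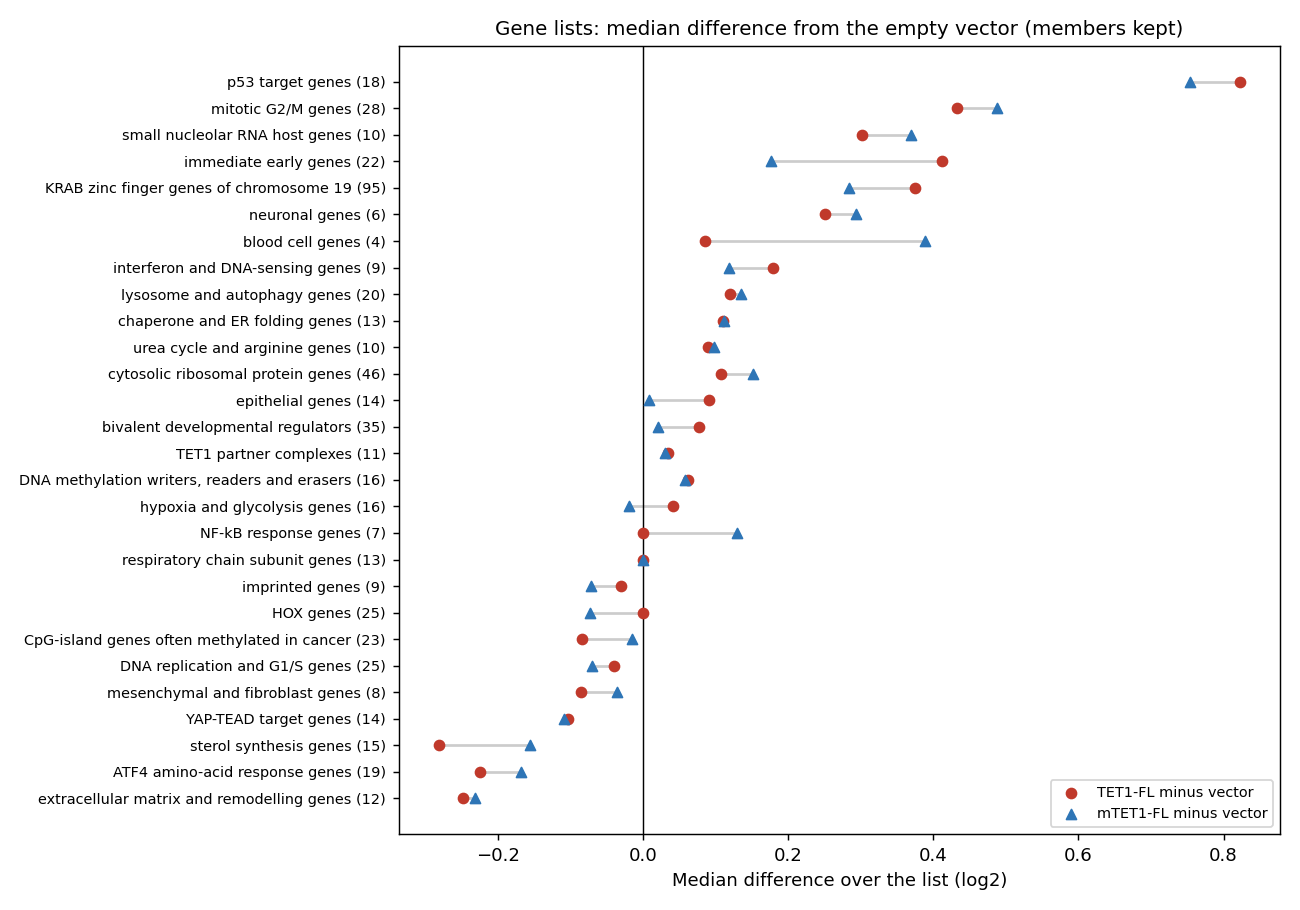
Median log2 difference from the vector (x axis) over the kept members of each gene list, for TET1-FL (red circles) and mTET1-FL (blue triangles), with the number of kept members in brackets. The p53 targets are farthest to the right at 0.82 and 0.75, followed by mitotic genes at 0.43 and 0.49, and the matrix, ATF4 and sterol lists are farthest to the left.

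Other lists had medians within 0.4 of the vector. Their counts stand beside 38.3% of all named genes above in both arrays, 41.8% below and 0.833% 2-fold higher. Ribosomal protein genes gave 29 above and 11 below of 46, with medians of 0.11 and 0.15 and FAU the highest (7.33, 8.22 and 8.32), then RPL32 (7.95, 8.66 and 8.62) and RPL6 (7.99, 8.51 and 8.60). Hosts of small nucleolar RNAs gave 8 above and 1 below of 10, with medians of 0.30 and 0.37, led by SNHG5 (8.23, 8.85 and 9.02), SNHG15 (9.52, 10.11 and 10.17) and GAS5 (10.35, 10.79 and 10.95). Lysosome and autophagy genes gave 14 above and 5 below of 20, among them the sialidase NEU1, which was 2-fold higher (7.27, 8.74 and 8.59), the calcium channel MCOLN1 (8.22, 8.95 and 8.82) and the transcription factor TFE3 (8.10, 8.81 and 8.72). Targets of YAP and TEAD gave 4 above and 9 below of 14, so ANKRD1 stood apart from its list, whose medians were -0.10 and -0.11. Its members CCN2 (6.16, 6.72 and 6.59) and CRIM1 (7.99, 7.59 and 7.49) lay on opposite sides of the vector. Urea cycle and arginine genes gave 6 above and 4 below of 10, with medians of 0.089 and 0.098. NAGS, which makes the activator of the cycle, was the highest (6.20, 7.05 and 6.48), and ASS1, which makes argininosuccinate (9.24, 8.37 and 8.53), and SLC25A15 (8.09, 7.70 and 7.66) were the lowest.

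Among stress lists, interferon and DNA-sensing genes had medians of 0.18 and 0.12 over 9 members, the highest being IRF1 (5.82, 6.03 and 6.11), IRF9 (6.54, 6.83 and 6.69) and IFIT5 (7.51, 7.69 and 7.71). NF-kB genes had medians of 0.00 and 0.13 over 7, with IER3 (7.72, 8.30 and 8.38), NFKB1 (6.40, 6.78 and 6.80) and RELB (6.72, 7.17 and 6.88) the highest. Chaperones had medians of 0.11 and 0.11 over 13, with BAG3 (7.82, 8.30 and 8.31) and HSPH1 (9.27, 9.73 and 9.69) the highest and HYOU1 (8.55, 8.28 and 8.17) the lowest. Hypoxia genes had medians of 0.04 and -0.02 over 16, with ADM at 6.64, 7.40 and 7.17, KDM3A at 7.62, 8.42 and 8.06 and VEGFA at 7.89, 7.44 and 7.46. Respiratory chain genes had medians of 0.00 in both arrays, with UQCRB (7.32, 7.91 and 7.88), COX5B (7.13, 7.84 and 7.47) and COX7B (7.70, 8.12 and 8.14) the highest.

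Markers of other cell types were also read. For their counts the shares of all named genes are 38.3% above in both arrays, 41.8% below and 0.833% 2-fold higher. Epithelial genes gave 5 above and 3 below of 14, with medians of 0.09 and 0.01, JUP (8.35, 9.04 and 8.90) and EPCAM (6.61, 6.996 and 6.89) being high and DSP (9.60, 9.30 and 9.22) low. Neuronal genes gave 5 above and 1 below of 6, with medians of 0.25 and 0.29, SYN1 (5.75, 6.44 and 6.54) and SYP (6.90, 7.27 and 7.26) being high and STMN2 (6.10, 5.83 and 5.65) low. Blood cell genes had 4 members kept, with medians of 0.09 and 0.39, 2 of them above the vector in both arrays, CD68 (7.08, 7.77 and 7.47) and LAPTM5 (5.50, 5.70 and 6.17), while CSF1R stood at 5.86, 5.42 and 6.25. Mesenchymal genes gave 3 above and 4 below of 8, with medians of -0.08 and -0.04. SNAI1, the epithelial-to-mesenchymal transition factor, was the 1 marker past 2-fold at 6.09, 7.43 and 7.29, while VIM stood at 8.59, 8.50 and 8.60, THY1 at 6.18, 5.73 and 5.65 and FBN1 at 7.21, 6.81 and 6.87. The part of such cells in the results was not tested.

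Promoter CG was counted in the RefSeq windows of 300 bases for the 7992 of 10329 named genes that had one. Genes at least 2-fold higher had a median of 21 CG (quartiles 13 and 25.25, 60 genes), against 26 (17 and 34) for all genes kept. Some of the higher genes were kept through their TET1 values, so the filter enters this contrast. Without the filter the medians were nearer, 20.5 (68 genes) against 23. At 1.5-fold, which 3.69% of named genes passed on the higher side and 0.823% on the lower, 302 higher genes with a window had a median of 22 and 53 lower genes a median of 29. Without zinc finger genes, 38 protein-coding genes 2-fold higher had a median of 20.5, against 26 for all 7180 such genes. Of protein-coding genes with 25 CG or more, 15 of 4154 (0.361%) were 2-fold higher, against 17 of 1174 (1.45%) with 20 to 24 and 8 of 497 (1.61%) with 10 to 14. Genes with the fewest CG, 0 to 4, had 4 of 403 (0.993%), so the share did not follow the CG count in order. PLK2, with 40 CG in its window, belonged to the richest class.

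**Figure D5:**
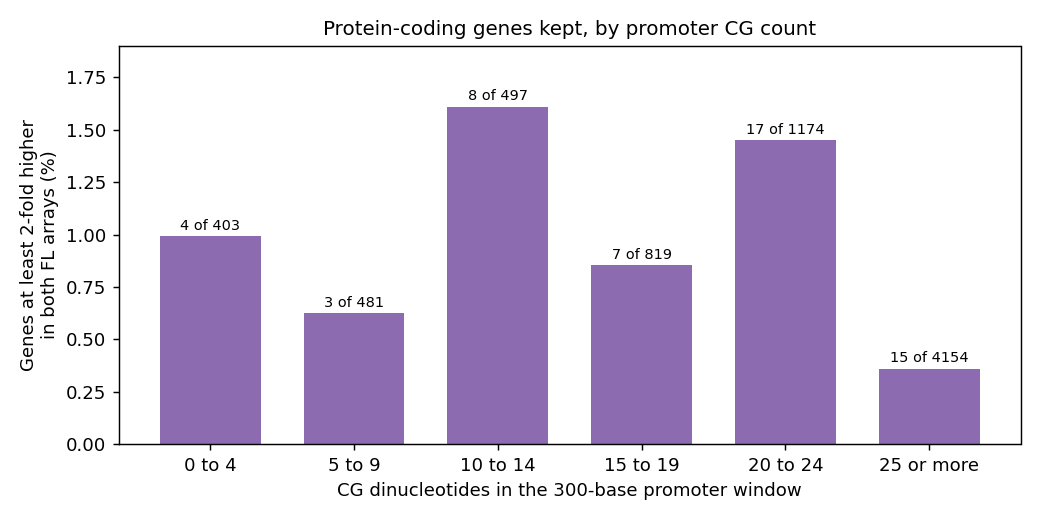
Percentage of kept protein-coding genes at least 2-fold higher in both TET1 arrays (y axis, bars from 0) by the number of CG in the 300-base promoter window (x axis); the number of genes stands above each bar. The class with 25 CG or more has the lowest bar, at 0.361% of 4154 genes.

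The wild-type and mutant readings give the spread of this comparison. The wild-type reading was at least 2-fold above the mutant in 57 clusters (0.213%) and below it in 86 (0.322%). Among named genes this held for 1 gene on the higher side (0.00968%) and 2 on the lower side (0.0194%). TCEAL7, of a family of transcription elongation factor-like genes, stood at 5.36 with the vector, 6.74 with TET1-FL and 5.56 with mTET1-FL. The vector value of TCEAL7 was below the array median, so TCEAL7 was kept through its TET1-FL value. MIR4518 stood at 8.25, 7.35 and 8.46, and MIR191 at 6.35, 5.73 and 6.75. The spread narrowed with the level, the SD of the wild-type minus mutant difference being 0.229 among the 2583 named genes of lowest level and 0.120 among the 2582 of highest level. With 1 array each, wild-type and mutant cannot be tested against each other here.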

How the data were processed

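RNA from 3 of 8 arrays was compared, TET1-FL, mTET1-FL and the empty vector, with 1 array each. The deposited values are log2 signals per transcript cluster. They were made with RMA and Affymetrix Expression Console 1.3.1, per the submitters' processing notes; RMA is a method that subtracts background, brings arrays to 1 distribution and combines probes, so a shift common to all genes would be removed. For the genome build, nothing is given in the sources used here. Precision is limited by having 1 array a condition.

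Of 53981 rows, 364 had no value. The platform annotation named 16098 clusters with 1 symbol, 0 with several, and 37519 carry no name here. All 16098 matched a RefSeq GRCh38.p14 gene by number, and 0 symbols changed. Clusters were kept by level as described (26735, of which 11039 named). Differences were fitted with limma 3.58.1 (lmFit, eBayes) in R 4.3.3, with Benjamini-Hochberg adjustment, and the procedure was tested on simulated data. Promoter and microRNA sequences are from RefSeq, GRCh38.p14.

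Named are TET1, PLK2, GDF15, the 12 highest and 12 lowest genes by the smaller difference, the 5 extremes of each array, and per list the 3 farthest members and those past 2-fold. Other genes named, among them list members, gene blocks, signalling and small RNA genes, were chosen after their values were seen. The arrays, genes and lists were chosen with earlier results of these data known. Alternatives changed the filter, the centring, the fit, the fold and the control array.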

Additional observations from a re-analysis of the deposited data

How the results depend on the processing

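No paired analysis was possible because each condition had 1 array. The limma count of 0 became 1 (TET1 16715048) with median centring, with tied clusters left out (an alternative chosen after seeing the data) and with the 5 vector and plasmid arrays. Clusters 2-fold higher and lower in both arrays, 423 and 26, became 706 and 175 without the filter (80.1% higher against 94.2%), 86 and 1 with 1 cluster per symbol, 1475 and 438 at 1.5-fold (77.1% higher), 20 and 0 at 4-fold, and 791 and 213 against the control shRNA clone in place of the vector (78.8% higher, chosen after seeing the data). Leaving out either TET1 array gave 609 to 720 higher and 97 to 123 lower. Without the filter TET1-FL gave 1409 higher and 529 lower (72.7% higher against 85.4%) and mTET1-FL 1109 and 544 (67.1% against 86.3%). Their difference gave 429 and 360 (54.4% against 39.9%). With 1 cluster per symbol these were 137 and 5, 98 and 5, and 1 and 2. With 2 of 8 arrays above the median as the filter, 140 were lower in the wild type than in the mutant, in place of 86. The causes were not tested. Medians of gene lists changed sign in 3 of 28 lists with median centring, 1 with cyclic loess, 4 without the filter, 1 with the filter on 2 of 8 arrays, 2 without TET1-FL, 3 without mTET1-FL and 8 against the control shRNA clone. Of 25 leading genes, 2 (MIR340 and LOXL2) changed sign against that clone and 0 under either scaling.

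Identical values in 2 arrays, 711 clusters (2.66%) between TET1-FL and mTET1-FL, set the residual spread to 0 there; the fit's prior SD was 0.068 with such clusters and 0.115 without any tied cluster.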
